A study of Mus musculus with 28 samples.

Results

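Integrins and leukocyte adhesion molecules are the surface receptors with which macrophages hold on to matrix and to other cells. Their transcripts were followed in mouse bone marrow-derived macrophages in 6 treatment groups, untreated cells included. The members were 35 genes chosen by name: the integrin alpha and beta chains, the immunoglobulin-type counter-receptors, E-cadherin, the selectin ligand Selplg and the hyaluronan receptor Cd44. Of these, 33 were on the array by name and 32 were tested, among 22654 tested genes of 27962 gene names. The test took in a gene where at least 3 of 28 arrays flagged its brightest probe as well above background in the scanner output. Itga2 reached that call on 1 array and was not tested, no probe carried the name Itgad, and Selplg stood on the array under its older name Selpl and is described apart.

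Integrins work as pairs of one alpha and one beta chain, and the pair decides what is bound. The beta2 chain pairs with alphaL, alphaM or alphaX on leukocytes and binds ICAM proteins, complement or fibrinogen. The beta1 chain carries most collagen, laminin and fibronectin receptors, and pairs with alpha4 to bind VCAM1. The alphaV chain pairs with several beta chains that read the RGD motif of matrix proteins, and with beta8 it is known for activating latent TGF-beta. E-cadherin, encoded by Cdh1, joins neighbouring cells and has been described as a feature of macrophages exposed to IL-4.

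All cells were macrophages of the C57BL6/J strain, grown from bone marrow in 200 ng/ml recombinant human CSF1. Marrow of several animals was pooled, with 2 males and 1 female named, aged 8 to 12 weeks. Treatment began on day 7. The groups were untreated (7 arrays, experiments A to G), LPS at 10 ng/ml for 4 h (7 arrays, A to G), IL-4 at 10 ng/ml for 18 h (4 arrays, A, B, C and G), IL-4 with LPS in the last 4 h (4 arrays, same letters), IFN-γ at 100 U/ml for 18 h (3 arrays, E, F and G) and IFN-γ with LPS in the last 4 h (3 arrays). LPS is a bacterial cell wall component sensed by TLR4, IL-4 a type 2 cytokine and IFN-γ a cytokine of antimicrobial defence. The labels call the experiments by letter and do not say that each letter was a separate pool of marrow, so p-values measure the spread between these arrays.

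Levels are log2 signal minus the array's own 75th percentile, so 0 is the signal of the probe at that percentile. Levels of different probes are not comparable. The 75th percentile ran from 582 to 2113 intensity units, and 60.3% to 78.7% of probes were well above background on an array. Correlations between arrays of a group, taken across genes (no independent replicates), were 0.940 to 0.991. The number of arrays limits the precision. All 9 macrophage markers measured were above background on every array. Treatment labels of the scanner data went with marker genes: Retnla lay at 7.28 or above in IL-4 arrays and at -6.60 or below elsewhere, Cxcl9 at 6.94 or above in IFN-γ arrays and at 6.07 or below elsewhere, and Il6 at 3.08 or above in LPS arrays and at -0.997 or below elsewhere. The deposited value table did not go with its sample labels: only 2 of its 28 columns matched the array of the same sample best, and 15 an array of the same group. It was not used. Experiment letters of untreated and LPS arrays did not pair them either, while arrays of 1 slide set deviated together, so differences within the 7 slide sets are given below. In bulk RNA, fewer cells with a transcript and less of it per cell cannot be told apart.

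Promoter sequences were available in the RefSeq table (build GRCm38.p6) for 22 of the 35 members, as 24 windows of 300 bases, from 250 before to 50 after the start. Those of 4 members are printed along the gene's own strand. Icam1, Itga5 and Itgb8 were among the members higher with LPS, and other such members with a window are not printed. Itgax read higher on every IL-4 array than on any untreated array. Its IL-4 change did not pass in limma's model of all 28 arrays, as described below. Icam1 lies at chr9:21015690-21015989 (plus strand), Itga5 at chr15:103366742-103367041 (minus strand), Itgax at chr7:128129300-128129599 (plus strand) and Itgb8 at chr12:119238227-119238526 (minus strand). 4 patterns were searched on both strands: GGNNNTTCC (kappaB-like), TTCNNNGAA (GAS-like), TTCNNNNGAA (STAT6-like) and GAGGAA (PU.1-like). Capitals mark kappaB-like and GAS-like matches in Icam1, the kappaB-like match in Itga5 and the STAT6-like match in Itgax.
Icam1: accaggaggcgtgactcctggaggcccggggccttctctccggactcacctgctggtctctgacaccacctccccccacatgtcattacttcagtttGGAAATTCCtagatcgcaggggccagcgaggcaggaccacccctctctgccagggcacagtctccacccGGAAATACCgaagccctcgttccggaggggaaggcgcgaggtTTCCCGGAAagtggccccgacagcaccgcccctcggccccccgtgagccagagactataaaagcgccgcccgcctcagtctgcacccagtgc
Itga5: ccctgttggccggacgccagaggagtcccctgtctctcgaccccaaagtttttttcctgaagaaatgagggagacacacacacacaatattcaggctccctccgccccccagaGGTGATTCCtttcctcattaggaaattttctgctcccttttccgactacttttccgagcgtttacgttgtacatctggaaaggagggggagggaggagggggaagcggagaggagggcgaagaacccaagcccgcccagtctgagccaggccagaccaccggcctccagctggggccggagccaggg
Itgax: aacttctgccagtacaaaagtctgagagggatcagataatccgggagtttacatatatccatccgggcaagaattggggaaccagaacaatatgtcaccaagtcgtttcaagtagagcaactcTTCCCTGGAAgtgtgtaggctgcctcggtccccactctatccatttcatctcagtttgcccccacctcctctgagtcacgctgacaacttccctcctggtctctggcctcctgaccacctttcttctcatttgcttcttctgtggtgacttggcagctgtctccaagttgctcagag
Itgb8: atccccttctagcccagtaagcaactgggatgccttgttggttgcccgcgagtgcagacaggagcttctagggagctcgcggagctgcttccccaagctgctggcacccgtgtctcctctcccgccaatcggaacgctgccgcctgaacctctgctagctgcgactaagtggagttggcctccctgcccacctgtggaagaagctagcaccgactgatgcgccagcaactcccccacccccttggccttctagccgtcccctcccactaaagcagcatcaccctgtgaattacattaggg
Icam1 held 2 kappaB-like matches, starting 153 and 84 bases before the start, and a GAS-like match 42 bases before it, none overlapping another. A match on the other strand reads as its reverse complement in the printed line. Itga5 held a kappaB-like match 137 bases before the start and a PU.1-like match 127 bases before it, which is left in lower case. The Itgax match lay 127 bases before the start. In the Itgb8 window none of the 4 patterns was found, which says only that these letters are not in this window. The kappaB-like pattern was in 4 of the 24 member windows (16.7%) and in 18.5% of all 32851 windows of that length. Among the other members higher with LPS that had a window, Itgb1 held it. Itga3, Itga4, Itgam, Itgav, Itgb6, Icam4, Cd44 and Alcam did not. The GAS-like pattern was in 2 (8.33% against 8.3%), the STAT6-like pattern in 3 (12.5% against 6.95%) and the PU.1-like pattern in 11 (45.8% against 28.3%).

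**Figure D1:**
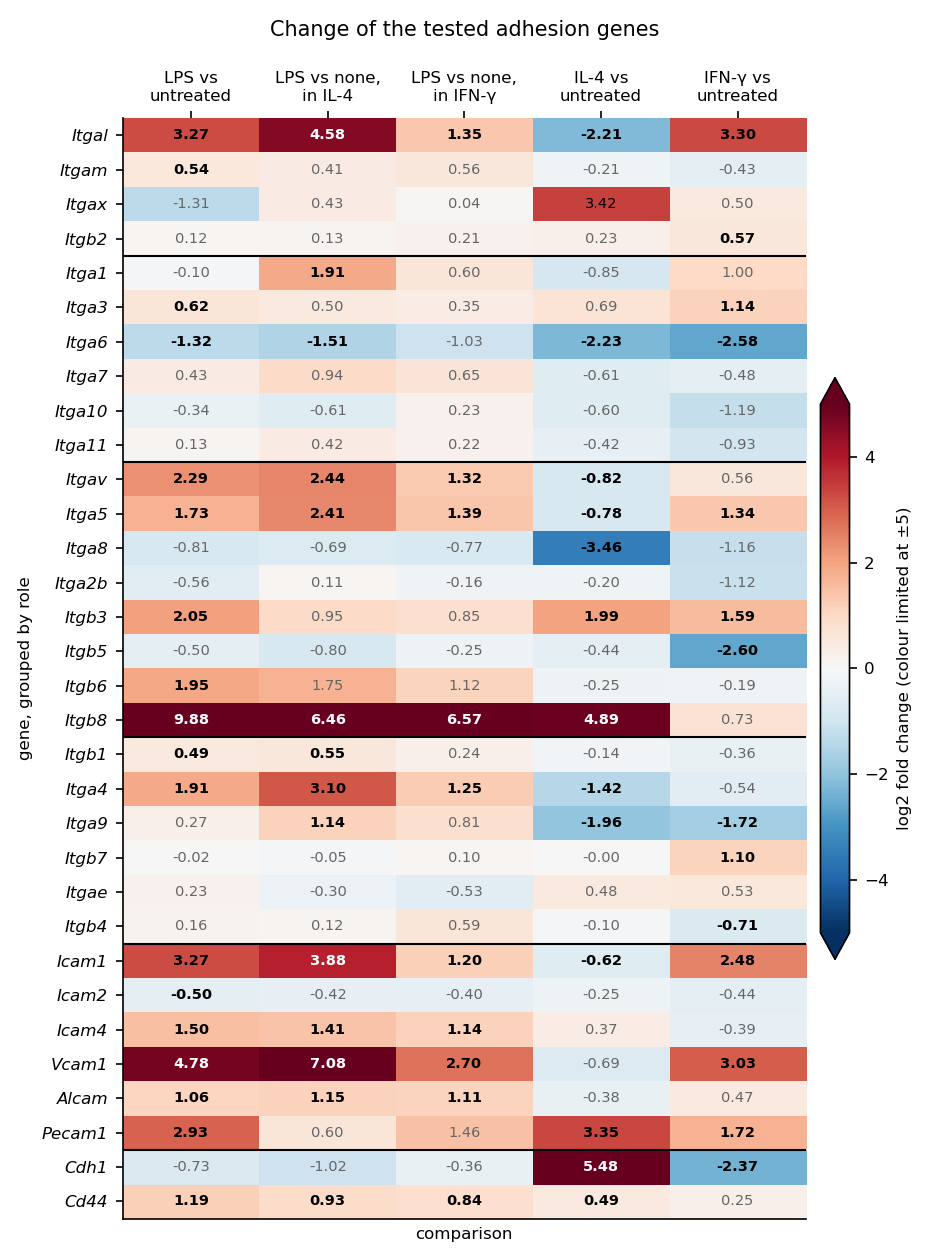
Log2 fold change of the 32 tested members (rows, grouped by role) in 5 comparisons (columns); colour runs from blue (lower) to red (higher) and is limited at 5 in either direction, and bold values passed limma's test at adjusted p under 0.05. LPS columns hold mostly red cells among counter-receptors and alphaV-family chains, in the IL-4 column 7 alpha chains passed as lower and Cdh1 and Itgb8 as higher, and Itga6 is blue in every column, with the LPS change in IFN-γ-primed cells not passing the test.

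LPS alone raised 16 of the 32 members and lowered 2, where 20.8% of all tested genes were higher and 21.5% lower. The median member changed by 0.46 on the log2 scale and the median gene by 0.05. Among the counter-receptors, Icam1, Icam4, Vcam1, Alcam and Pecam1 rose and Icam2 fell. Among integrins the risers were the alphaL and alphaM chains, alpha3, alpha4, alpha5, alphaV, and beta1, beta6 and beta8. The count of risers also holds Itgb3 by its brightest probe, whose other probe fell. Itga6, the alpha chain of laminin receptors, fell with Icam2. In 13 of these 18 the untreated and LPS arrays did not overlap. These 18 were picked by the test on the same arrays, and the share of all genes without overlap was not counted.

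Icam1, which binds the beta2 integrins LFA-1 and Mac-1, read 4.24, 4.53 and 4.86 (lowest, median, highest) on untreated arrays and 7.52, 7.83 and 8.23 on LPS arrays. Every LPS array lay above every untreated array, a change of 3.27 ± 0.16 (SE; 9.62-fold, adjusted p = 1.89e-14). Within the 7 slide sets the rise was 2.83 to 3.42, and its second probe rose by 4.02 ± 0.30. Vcam1, the counter-receptor of alpha4beta1, read -3.67, -2.86 and -1.58 on untreated arrays and 1.40, 1.84 and 2.42 on LPS arrays. Its rise of 4.78 ± 0.29 (27.5-fold, adjusted p = 7.57e-13) was found in all 7 slide sets, at 4.00 to 5.73. Pecam1, a receptor of leukocyte transmigration, was near background without treatment, where 5 of 7 arrays were well above it, and rose by 2.93 ± 0.35 (adjusted p = 1.27e-07). Untreated array G read -3.81 for Pecam1 against -6.66 to -5.38 on the other untreated arrays. Icam4, a ligand of several integrins known from red cells, rose 2.83-fold, and Alcam, the ligand of CD6, by 1.06 ± 0.18 on the log2 scale. Icam2, a constitutive ligand of LFA-1, fell by 0.50 ± 0.18 (adjusted p = 0.0287), a call lost without any 1 of 6 arrays (LPS C, E or G, untreated A, B or C; -0.48 to -0.44).

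Of the integrin chains that bind these counter-receptors, Itgal and Itga4 rose. Itgal, the alpha chain of LFA-1, read -0.07, 0.82 and 1.79 on untreated arrays and 3.32, 4.16 and 4.67 on LPS arrays. The groups did not overlap, and the change was 3.27 ± 0.28 (adjusted p = 5.52e-10), with 2.89 to 3.86 within slide sets and 3.12 ± 0.26 on the second probe. Itga4, which with beta1 binds VCAM1, rose by 1.91 ± 0.24 (adjusted p = 3.12e-07). The shared beta chains moved far less: Itgb1 rose by 0.49 ± 0.12, a call lost under normexp, quantile and median scaling and as the mean of all probes, and Itgb2 differed by 0.12 ± 0.11 and did not pass. Itgb2 turned to -0.75 (adjusted p = 3.23e-05) under quantile normalization. Itgam, the alpha chain of the complement receptor Mac-1, was 0.54 ± 0.16 higher, but turned to -0.17 under quantile normalization (adjusted p = 0.404). Cd44 rose by 1.19 ± 0.13. T cell markers summed to 0.18 to 0.72 on untreated and 1.17 to 2.46 on LPS arrays, and of the 8 genes Lck passed as higher (mean -4.30 and 0.80) and Cd5 as lower. Cd3e, Cd4, Cd5 and Lck were above background on all 28 arrays and Cd3d on 5. Of 5 endothelial genes, Kdr had means of 0.96 and 3.40; Kdr, Cdh5 and Tek were above background on all 28 arrays, and Emcn and Tie1 on 4 and 5. The summed endothelial level was 0.21 to 1.58 on untreated and 3.14 to 3.74 on LPS arrays. Only Kdr, the brightest of these genes, passed as higher. Cdh5 and Tek had higher means with LPS, and Emcn and Tie1 lower ones. Summed dendritic cell markers were -1.42 to -0.66 on untreated and 1.07 to 3.10 on LPS arrays, and 3 of 5 tested, Zbtb46, Btla and Ccr7, were higher, while Cd209a was above background on 1 array. The part of these marker lists in the LPS changes was not tested.

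**Figure D2:**
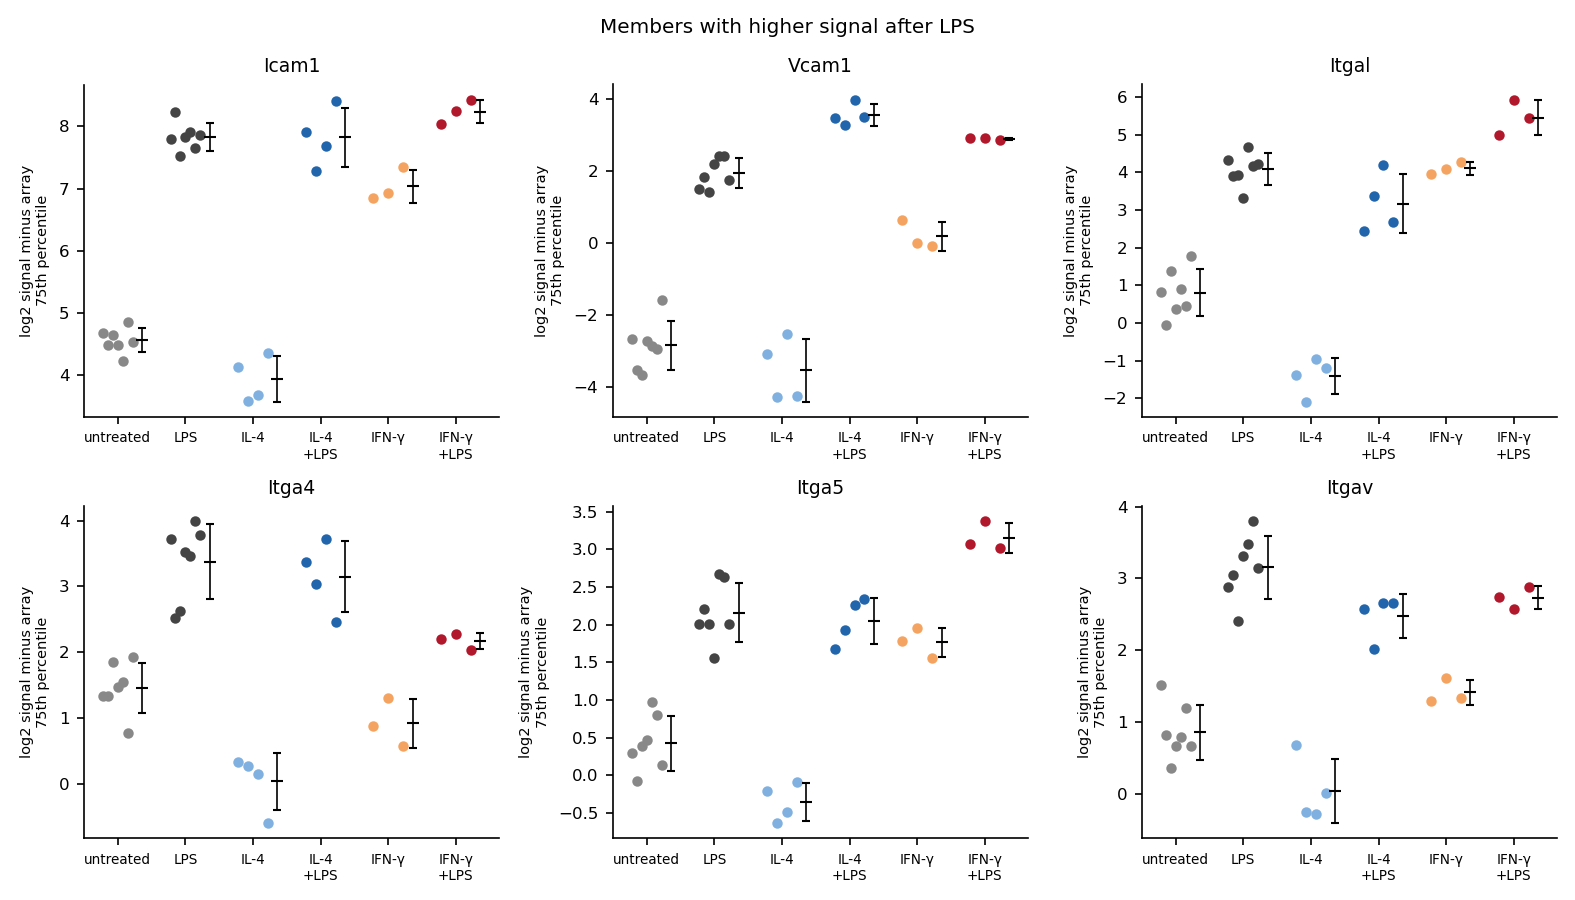
Level of 6 members on every array by group (points, hollow where not well above background; black bars give mean ± SD over 3 to 7 arrays), as log2 signal minus the array's 75th percentile. Icam1, Vcam1, Itgal, Itga4, Itga5 and Itgav lie higher with LPS than without it in each priming state, and IFN-γ alone already raises Icam1, Vcam1, Itgal and Itga5.

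Itgb8 had the largest fitted LPS change among the 32 members. This chain has one known partner, alphaV, with which it frees active TGF-beta. On its brightest probe none of 7 untreated arrays was well above background (-9.78, -8.12 and -7.64), while all LPS arrays were (0.68, 1.39 and 1.91). The rise was at least 249-fold, with a fitted change of 9.88 ± 0.38 (adjusted p = 2.53e-16) that depends on signals below background. The bound sets the mean of the LPS arrays against the lowest signal called well above background on each untreated array. Itgav, its partner, read 0.37, 0.79 and 1.51 without and 2.40, 3.15 and 3.80 with LPS, a rise of 2.29 ± 0.20 (adjusted p = 6.27e-10). Itga5, the fibronectin receptor chain, rose by 1.73 ± 0.18. Itgb6, another partner of alphaV that acts on TGF-beta, was above background on 1 untreated and 5 LPS arrays and rose by 1.95 ± 0.63 (adjusted p = 0.0142). Untreated array G read -3.50 for Itgb6 and the other 6 between -8.84 and -7.35, and without that array the change was 2.60. Normexp and the mean of all probes ended the Itgb6 call.

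The 4 probes of Itgb8 rose together with LPS but disagreed on the interaction. Levels on the second probe of the same transcript (A_52_P629324) ran from -9.19 to -6.15 on untreated and -1.45 to -0.37 on LPS arrays, with no untreated array above background, and it rose at least 49.2-fold. Probe A_51_P479519 was above background on 6 untreated arrays and rose by 6.08 ± 0.43. The dimmest (A_52_P164473), above background on 10 arrays in all, rose by 1.47 ± 0.44. All 4 therefore rose with LPS. With IL-4 alone the brightest rose at least 7.80-fold and A_52_P629324 at least 3.42-fold, both against untreated arrays below background, and A_51_P479519 rose by 2.76 ± 0.50. The dimmest had no IL-4 array above background. The difference between the LPS change in IL-4-primed and unprimed cells was -3.42 ± 0.64 on the brightest probe, -1.29 ± 0.57 and -1.64 ± 0.71 on the next, and 2.35 ± 0.74 on the dimmest, so the probes opposed each other there. These differences rest in part on untreated signals below background.

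**Figure D3:**
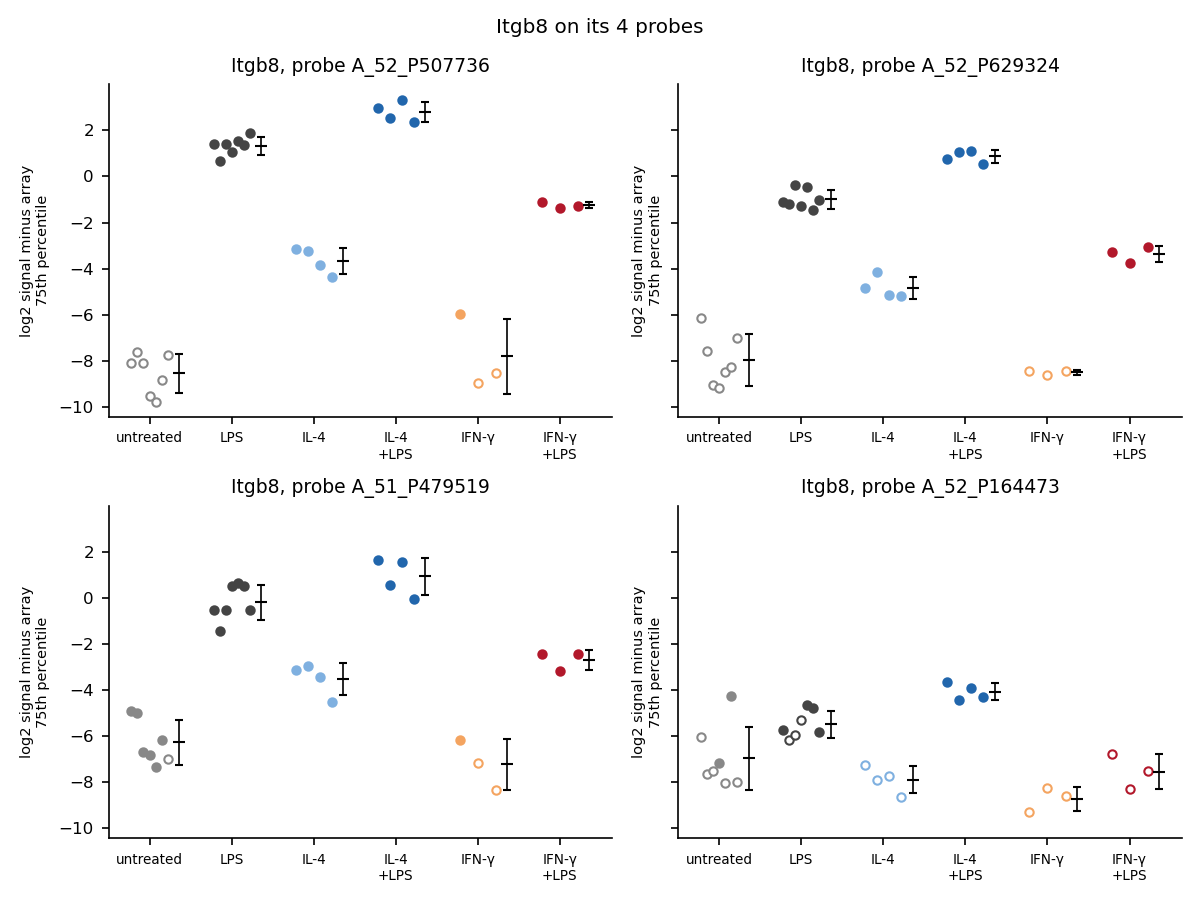
Itgb8 on its 4 probes, on every array by group (points, hollow where not well above background; black bars give mean ± SD), as log2 signal minus the array's 75th percentile on a shared axis. On the brightest probe, A_52_P507736, LPS arrays lie between 0.68 and 1.91, IL-4 with LPS between 2.37 and 3.34 and IFN-γ with LPS between -1.36 and -1.10; the dimmest probe, A_52_P164473, stays below -3.65.

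Itgb3, the beta chain of the vitronectin receptor, could not be given a direction with LPS or IFN-γ. Its brightest probe, designed on the reference transcript, read -0.36, 0.44 and 0.83 on untreated arrays and 1.49, 2.27 and 3.29 on LPS arrays, and rose by 2.05 ± 0.32. Its other probe (A_52_P553890), designed on a cDNA clone and above background on all 28 arrays, read 0.07, 0.72 and 1.20 against -1.86, -0.73 and -0.14, and fell by 1.55 ± 0.26. In IFN-γ-treated cells the brightest probe rose by 1.59 ± 0.42 and the other fell by 3.73 ± 0.33. Both rose with IL-4, by 1.99 ± 0.38 and 3.08 ± 0.30. Of the changes from untreated cells by LPS, IL-4 and IFN-γ alone, the probes pointed the same way for IL-4 and opposite ways for the others. The mean of both probes turned the IFN-γ change to -1.07 (adjusted p = 0.00328).

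IL-4 alone raised 5 members and lowered 8, where 5.72% of all genes were higher and 5.54% lower. The median member changed by -0.25 and the median gene by 0.01. Cdh1, Itgb8, Pecam1, Itgb3 and Cd44 rose. The alpha chains Itga4, Itga5, Itga6, Itga8, Itga9, Itgal and Itgav fell, and so did Icam1. Pecam1 read -3.30, -2.25, -1.54 and -2.53 on IL-4 arrays A, B, C and G, all above the highest untreated array (-3.81), and rose by 3.35 ± 0.41 (adjusted p = 1.69e-06), a call lost under normexp correction. The summed endothelial markers were -1.48 to -0.60 on those arrays and 0.21 to 1.58 on untreated arrays. Of the 5 genes only Kdr passed, as lower (mean 0.96 untreated and -1.82 with IL-4).

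Cdh1 had the largest fitted IL-4 change among the members. It read -6.34, -4.82 and -4.31 on untreated arrays, 6 of 7 above background, and 0.51, 0.16, -0.12 and 0.98 on IL-4 arrays A, B, C and G. Every IL-4 array lay above every untreated one, a rise of 5.48 ± 0.44 (44.6-fold, adjusted p = 2.03e-09), with 4.70 to 6.15 within 4 slide sets. With LPS added the IL-4 arrays read -0.21, -1.41, -1.52 and 0.59, which is 5.19 ± 0.44 above LPS alone, and the LPS change in IL-4-primed cells, -1.02 ± 0.50, did not pass (adjusted p = 0.137; it passed at -1.43 without IL-4 with LPS array G). Of 4 epithelial genes none was above background on every array, and their summed level was -4.65 to -1.51 on untreated and -4.84 to -2.37 on IL-4 arrays. Osteoclast and cell fusion genes did move: their summed level was 0.45 to 1.54 on untreated and 4.10 to 4.73 on IL-4 arrays. Of the 6 genes, 5 passed as higher with IL-4: Ocstamp, Atp6v0d2, Dcstamp, Ctsk and Acp5. The defining Calcr was above background on 6 of 28 arrays and did not pass. The part of these genes in the IL-4 changes was not tested.

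Among the falls, Itgal dropped to -1.37, -2.09, -0.96 and -1.19 on IL-4 arrays A, B, C and G, all below the lowest untreated array (-2.21 ± 0.33, adjusted p = 3.57e-05). Summed T cell markers were -0.84 to -0.10 there and 0.18 to 0.72 on untreated arrays. Of the 8 genes only Cd5 passed, as lower (mean -0.06 untreated and -1.85 with IL-4). Cd3e, Cd8a and Cd2 had higher means with IL-4, and Cd3d, Cd3g, Cd4 and Lck lower ones. Itga6 read 2.49, 2.18, 1.41 and 2.30, against 4.10 to 4.57 untreated, and fell by 2.23 ± 0.29 (adjusted p = 3.49e-06). Itga9, whose pair with beta1 binds tenascin and osteopontin, fell by 1.96 ± 0.26. Itga8, an RGD-binding partner of beta1, read -4.45, -6.16, -5.59 and -4.21 on IL-4 arrays, 2 of 4 above background, and -2.85 to -0.46 untreated. Its change was -3.46 ± 0.62 (adjusted p = 2.92e-04), and normexp correction ended the calls of Itga8 and Itga9. Itga4 fell by 1.42 ± 0.28 and Itga5 by 0.78 ± 0.21, the latter not called without IL-4 array B (-0.69). The smaller changes of Itgav (-0.82 ± 0.24), Icam1 (-0.62 ± 0.19) and Cd44 (0.49 ± 0.16) were each lost without 1 array at least 3 times: Itgav without IL-4 array B, C or G (-0.81 to -0.71), Icam1 without IL-4 B or C or untreated A, C or F (-0.60 to -0.50), and Cd44 without IL-4 A, B or G or untreated B, C, D, F or G (0.43 to 0.51). Vcam1 was -0.69 ± 0.34 and did not pass (adjusted p = 0.243).

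Itgax, the alphaX chain that is widely used as a dendritic cell marker, read 0.92, 1.79 and 2.21 on untreated arrays and 5.40, 4.58, 5.60 and 5.18 on IL-4 arrays, with no overlap. In the model of all 28 arrays its change of 3.42 ± 1.24 did not pass (adjusted p = 0.0809). LPS array F stands apart on this probe: it read -8.38 and was not above background, while the other 6 LPS arrays read 1.47 to 2.46. Fitted on untreated and IL-4 arrays alone the same change was 3.42 ± 0.27 (adjusted p = 1.62e-05). With LPS in both arms Itgax was 5.16 ± 1.24 higher with IL-4 (adjusted p = 0.00762) and 3.68 ± 0.28 higher without LPS array F (adjusted p = 5.46e-09). With only those LPS groups in the fit and array F kept, the difference did not pass (adjusted p = 0.153). The other Itgax probe, above background on all 28 arrays, rose by 1.71 ± 0.31 with IL-4 alone (adjusted p = 3.73e-04) and by 1.51 ± 0.31 with LPS in both arms. Summed dendritic cell markers were -1.42 to -0.66 on untreated and -1.13 to -0.81 on IL-4 arrays.

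**Figure D4:**
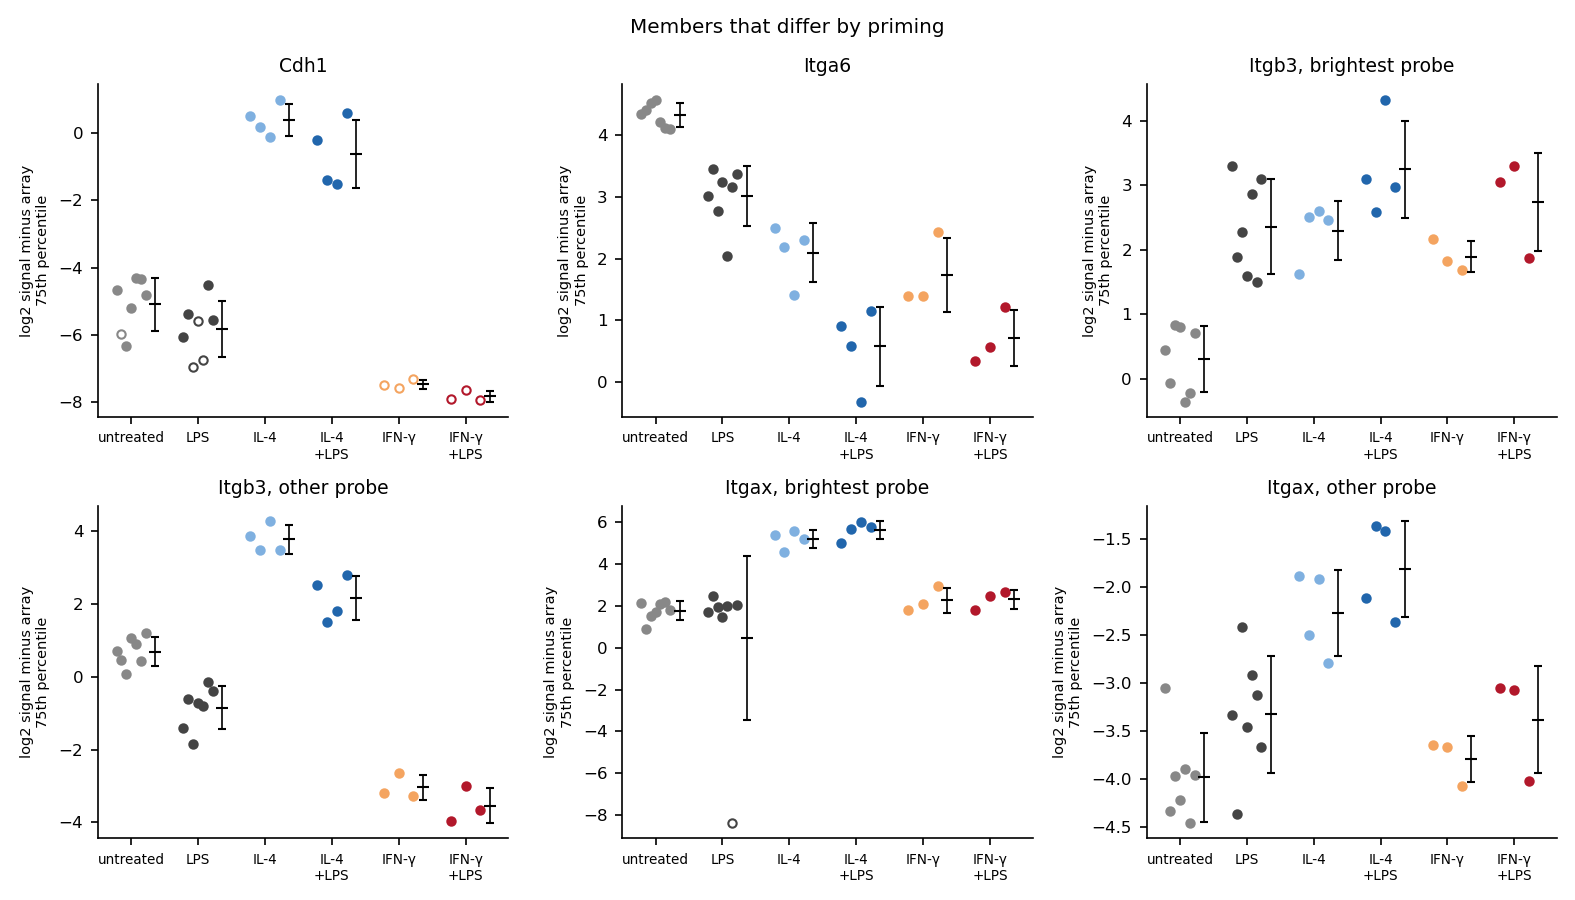
Level of Cdh1, Itga6, Itgb3 and Itgax on every array by group (points, hollow where not well above background; black bars give mean ± SD), as log2 signal minus the array's 75th percentile, with both probes of Itgb3 and Itgax. Cdh1 lies at -1.52 or above in both IL-4 groups and at -4.31 or below elsewhere, Itga6 is lower in every treated group, the Itgb3 probes differ in direction for LPS and for IFN-γ, and 1 LPS array reads -8.38 on the brightest Itgax probe.

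IFN-γ alone raised 9 members and lowered 5, where 12.6% of all genes were higher and 13.2% lower. The median member changed by 0.03 and the median gene by -0.29, and the latter moved with the scaling: it was 0.16 after median scaling and -0.06 after quantile normalization. Of all calls 48.8% were higher, and 77.7% after median scaling. Itgal, Vcam1, Icam1, Pecam1, Itga5, Itga3, Itgb7 and Itgb2 rose, and Itga6, Itgb5, Cdh1, Itga9 and Itgb4 fell. The count of risers also holds Itgb3 by its brightest probe, whose other probe fell.

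Itgal read 3.95, 4.08 and 4.28 on IFN-γ arrays E, F and G, above the highest untreated array at 1.79, and rose by 3.30 ± 0.37 (adjusted p = 2.12e-07). Its partner Itgb2 rose by 0.57 ± 0.14, but by 0.04 after quantile normalization, where the call was lost. Icam1 read 6.85, 6.92 and 7.34 and rose by 2.48 ± 0.21 (5.58-fold). Vcam1 read 0.63, -0.01 and -0.09 and rose by 3.03 ± 0.37 (adjusted p = 9.80e-07). All 3 genes thus stood above every untreated array. Itga5 rose by 1.34 ± 0.23 and Itga3, a laminin receptor chain, by 1.14 ± 0.26, the latter turning to -0.31 in the mean of its probes. Itgb7, which pairs with alpha4 or alphaE, rose 2.15-fold (adjusted p = 0.00279) and was not called after quantile normalization. Pecam1 rose by 1.72 ± 0.45, was at 1.34 and not called without IFN-γ array E, and turned to -0.01 under normexp correction. On the IFN-γ arrays the summed endothelial markers were 2.80 to 3.85 and the T cell markers -0.05 to 0.45. Kdr carried the endothelial sum (mean 0.96 untreated and 3.29 with IFN-γ) and passed as higher. Cdh5, Tek, Emcn and Tie1 had lower means than untreated, Tie1 passing as lower on the IFN-γ arrays. The osteoclast and cell fusion genes summed to 2.50 to 3.75 there, against 0.45 to 1.54 untreated, with Ocstamp higher (mean -3.87 untreated and 2.64) and none of the other 5 passing. The part of these lists was not tested.

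Itgb5, the beta chain of an alphaV receptor for vitronectin and apoptotic cells, read 2.32, 2.66 and 4.59 on IFN-γ arrays E, F and G and 5.60 to 6.35 on untreated arrays. It fell by 2.60 ± 0.36 (6.05-fold, adjusted p = 4.89e-06), and the change was -3.29 without array G. Itgb5 did not pass for IL-4 (-0.44 ± 0.33) or LPS (-0.50 ± 0.28). Itga6 fell by 2.58 ± 0.31 and Itga9 by 1.72 ± 0.29. Cdh1 was not well above background on any of the 6 IFN-γ arrays, and with IFN-γ alone it fell at least 3.36-fold from untreated cells (adjusted p = 6.50e-04), although normexp and quantile normalization ended that call. Itgb4, the hemidesmosome chain, fell by 0.71 ± 0.23 and was not called without IFN-γ array E (-0.62) or G (-0.67). Summed platelet and megakaryocyte markers, the cells of Itga2b, were 4.07 to 4.31 on IFN-γ and 5.42 to 6.17 on untreated arrays, led by Pf4. Itga2b itself differed by -1.12 ± 0.69 and did not pass.

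Set side by side, 14 members differed between IL-4 and IFN-γ: 5 were higher with IL-4 and 9 lower, where 14.8% and 13.0% of all genes were. Itgal differed by -5.51 ± 0.41, Vcam1 by -3.72 ± 0.41, Icam1 by -3.10 ± 0.23, Itga5 by -2.12 ± 0.26, Itgav by -1.37 ± 0.29 and Itgb7 by -1.10 ± 0.29. Cdh1 was at least 150-fold higher with IL-4 (adjusted p = 3.37e-11), Itgb8 4.16 ± 0.55 higher and Itgb5 2.15 ± 0.40 higher. Pecam1 (1.63 ± 0.50), Icam4 (0.76 ± 0.27), Alcam (-0.85 ± 0.26), Itga1 (-1.86 ± 0.63) and Itga8 (-2.30 ± 0.75) also passed. Each of these 5 was lost on leaving out 1 array: Pecam1 without IL-4 C or IFN-γ G (1.27 at the lowest), Icam4 without IL-4 A or C or IFN-γ E, F or G (0.62), Alcam without IL-4 C (-0.61), Itga1 without IL-4 G or IFN-γ E or F (-1.44) and Itga8 without IL-4 B or C or IFN-γ F or G (-1.51). Itgb7 was lost without IFN-γ array G (-0.81). For Itga8, the dimmest of 3 probes went the other way (1.75 ± 0.70, adjusted p = 0.0660). The groups share 1 experiment letter, G, and with its 1 array in each group and the error of the other groups 5 members passed. Of all calls 53.2% were higher with IL-4, and 27.7% after median scaling.

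LPS given after IL-4 raised 13 members and lowered Itga6 alone, where 15.0% of all genes were higher and 16.2% lower. Of all calls 48.0% were higher, and 37.9% after quantile normalization. The median member changed by 0.58 and the median gene by 0.14. Vcam1 read 3.45, 3.26, 3.98 and 3.49 on arrays A, B, C and G, against -3.08, -4.28, -2.53 and -4.27 with IL-4 alone, a rise of 7.08 ± 0.38 (136-fold, adjusted p = 2.35e-13). Itgb8 rose by 6.46 ± 0.51, Itgal by 4.58 ± 0.38 and Icam1 by 3.88 ± 0.21. The alpha chains Itga4 (3.10 ± 0.32), Itgav (2.44 ± 0.27), Itga5 (2.41 ± 0.24) and Itga9 (1.14 ± 0.30) rose as well. Itga1, a collagen receptor chain, rose by 1.91 ± 0.59, a call lost without IL-4 array G or IL-4 with LPS array B (1.66 without the latter). Smaller rises were those of Icam4, Alcam, Cd44 and Itgb1, at 1.41, 1.15, 0.93 and 0.55. All of these except Itga1 had groups that did not overlap. They were called on these same arrays, and the share of all genes without overlap was not counted. With the slide as a block 22 members passed, and the share of all genes under that block is not given here.

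LPS given after IFN-γ raised 10 members and lowered 0, where 5.60% of all genes were higher and 6.23% lower. The median member changed by 0.60 and the median gene by 0.14. At unadjusted p under 0.05, 1 member was lower in limma's test. Itgb8 read -1.10, -1.36 and -1.28 on arrays E, F and G, against -5.95, -8.97 and -8.53 with IFN-γ alone, where 1 of 3 arrays was above background, a change of 6.57 ± 0.59. Vcam1 rose by 2.70 ± 0.44 to 2.90, 2.90 and 2.85. Itga5 (1.39 ± 0.27), Itgav (1.32 ± 0.31), Icam1 (1.20 ± 0.25), Icam4 (1.14 ± 0.28), Alcam (1.11 ± 0.28) and Cd44 (0.84 ± 0.20) rose, with no overlap between the groups. These genes were called on the same arrays, and the share of all genes without overlap was not counted. Itga4 (1.25 ± 0.37) and Itgal (1.35 ± 0.44) passed, but Itga4 was lost without IFN-γ E or G or IFN-γ with LPS E or F (1.08 to 1.24) and Itgal without IFN-γ E, F or G or IFN-γ with LPS F or G (1.11 to 1.44). Icam4 was lost without IFN-γ with LPS array F (0.96). This count rests on the error pooled over all 6 groups: with only these 6 arrays in the fit 4 members passed, and with the experiment letter as a block in that fit 13 did. Under median scaling or normexp correction 2 passed, and with the slide as a block 16. Calls over all genes fell as well, from 2680 to 1414 under median scaling and to 863 under normexp. For the blocks and the fit on these 6 arrays the share of all genes is not given here.

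Itgb8, Vcam1, Itgal, Icam1, Itgav, Itga4, Itga5, Icam4, Alcam and Cd44 passed the test in all 3 LPS comparisons. The share of all genes that passed in all 3 is not given here. After IFN-γ the calls of Itga4, Itgal and Icam4 were lost on leaving out 1 array, as given above. Whether the LPS change differed by priming was tested directly. After IL-4, 1 member had a larger LPS change and 2 a smaller one, where 0.905% and 0.680% of all genes did. Vcam1 changed by 2.30 ± 0.48 more (adjusted p = 0.00941), though its second probe gave 0.98 ± 0.58 and normexp, the mean of all probes and the slide sets common to the 4 groups ended the call. Itgb8 changed by 3.42 ± 0.64 less (-3.42, adjusted p = 0.00337), starting from a higher level with IL-4, and its probes disagree as described. This size rests on untreated signals of which none was above background, and it turned to 0.21 under normexp correction and did not pass as the mean of all probes or with only the shared letters or slide sets (-2.80 in both). With the slide set as a block, an alternative chosen after seeing the data, 6 members passed, Itga1, Itga4 and Itgal among them. The share of all genes under that block is not given here. Pecam1 changed by -2.33 ± 0.58 (adjusted p = 0.0373), a call lost in 14 of 22 fits that each left out 1 array (-2.37 to -2.04 where lost).

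After IFN-γ, 0 members had a larger and 4 a smaller LPS change, where 3.03% and 5.25% of all genes did; at unadjusted p under 0.05, 0 members had a larger change in limma's test. Of all calls 36.6% were larger, and 25.7% after median scaling. Icam1 (-2.07 ± 0.29, adjusted p = 4.40e-05), Vcam1 (-2.08 ± 0.53, adjusted p = 0.0130), Itgal (-1.92 ± 0.52, adjusted p = 0.0197) and Itgb8 (-3.31 ± 0.70, adjusted p = 0.00291) were these 4. For Itgb8, 0 of 7 untreated and 1 of 3 IFN-γ arrays were above background, so its size rests on signals below background, and under normexp correction it was -1.48 and did not pass. With the slide as a block 8 members passed, without a share of all genes to set beside it. The first 3 stood higher with IFN-γ before LPS was added. The second Itgal probe gave -1.39 ± 0.47 and did not pass (adjusted p = 0.0676), and of the other Itgb8 probes none passed. The Vcam1 call was lost without IFN-γ array E (-1.85) and the Itgal call without IFN-γ array G (-1.83) or IFN-γ with LPS array E (-1.69). Icam1 read 8.04, 8.25 and 8.42 with both stimuli and 0.41 ± 0.21 above LPS alone, with a 95% interval of -0.02 to 0.84. Itgb8 ended 2.58 ± 0.50 below LPS alone (adjusted p = 4.05e-04), with every array lower.

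**Figure D5:**
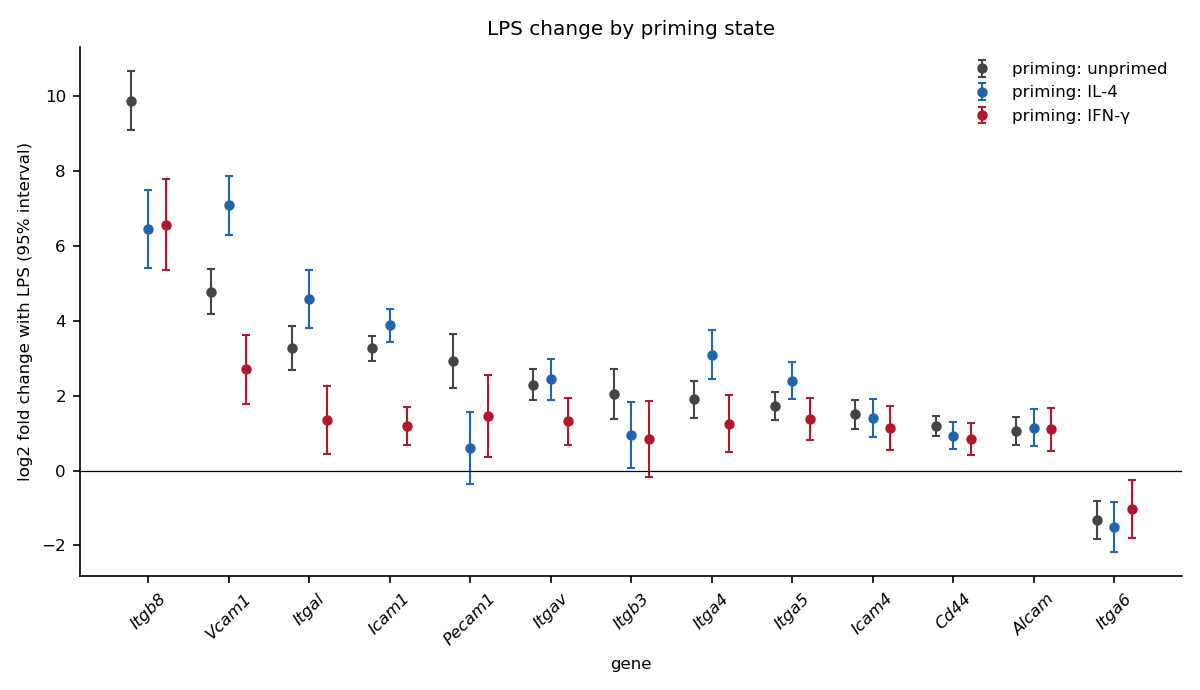
LPS change of 13 members in unprimed, IL-4-primed and IFN-γ-primed cells, as log2 fold change (points) with the model's unadjusted 95% interval (bars); the Itgb8 change in unprimed cells is fitted against signals below background. Changes after IFN-γ lie below those of unprimed cells for Itgb8, Vcam1, Itgal and Icam1, the 4 genes whose difference passed the test, whereas Vcam1 alone passed with a larger change after IL-4.

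Compared at the end of LPS treatment, IL-4-primed cells had 4 members higher and 3 lower than unprimed cells, where 4.36% and 4.56% of all genes were. Of all calls 48.8% were higher, and 37.4% after median scaling. Cdh1 and Itgax were higher as described, Vcam1 by 1.62 ± 0.34 (adjusted p = 0.00236) and Itgb8 by 1.46 ± 0.45 (adjusted p = 0.0410). The Itgb8 call was lost in 9 of 11 fits that left out 1 array (1.28 to 1.60). Itga6 fell by 2.43 ± 0.29, Itga8 by 3.34 ± 0.62 and Itga9 by 1.08 ± 0.26, the latter lost without IL-4 with LPS array G (-0.85). With the slide set as a block 14 members passed, the 7 added being Itga3 (0.73), Itgb2 (0.31), Itgb3 (1.02), Pecam1 (1.01), Itgal (-0.86), Itgam (-0.41) and Itgb5 (-0.92). Each of these had one sign in all 4 slide sets, such as Itgal at -1.23 to -0.49 and Pecam1 at 0.58 to 1.39. For the slide set block the share of all genes that passed is not given here. Icam1 levels overlapped, at 7.28 to 8.41 with and 7.52 to 8.23 without IL-4.

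IFN-γ-primed cells with LPS had 6 members higher and 8 lower than cells with LPS alone, where 10.7% and 12.1% of all genes were. Of all calls 46.8% were higher, and 72.5% after median scaling. Itgal (1.38 ± 0.37), Itgb7 (1.22 ± 0.27), Itga5 (0.99 ± 0.23), Itga3 (0.88 ± 0.26), Itgb2 (0.66 ± 0.14) and Itga1 (1.71 ± 0.57) were higher. Itgb8, Itgb5 (-2.34 ± 0.36), Itga6 (-2.30 ± 0.31), Itga4 (-1.20 ± 0.31), Itga9 (-1.18 ± 0.29), Icam4 (-0.75 ± 0.24) and Itgb1 (-0.60 ± 0.16) were lower, with Cdh1, which was at least 1.46-fold lower. Itga1 was lost without IFN-γ with LPS E or F or LPS B or G (1.41 to 1.66), Icam4 without IFN-γ with LPS E or G (-0.77 to -0.56), and Itgal, Itga3 and Itgb1 without 1 IFN-γ with LPS array (1.14 without F, 0.72 without F, -0.48 without E). The mean of its probes turned Itga3 to -0.18, and normexp turned Cdh1 to 0.20. Both LPS comparisons with primed cells use the same 7 LPS arrays.

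Itga6 was lower in every treated group: untreated arrays read 4.10 to 4.57, LPS 2.04 to 3.45, IL-4 1.41 to 2.49, IFN-γ 1.39 to 2.43, IL-4 with LPS -0.32 to 1.15 and IFN-γ with LPS 0.34 to 1.21. No treated array reached an untreated one. It fell by 1.32 ± 0.24 with LPS in unprimed cells and by 1.51 ± 0.32 in IL-4-primed cells. After IFN-γ the LPS change was -1.03 ± 0.37 and did not pass (adjusted p = 0.0751).

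Of the remaining members, Itga7, Itga10, Itga11, Itga2b and Itgae passed in no comparison in limma's test, and 1 of their results, the LPS difference of Itga7 after IL-4 (0.94 ± 0.38), had an unadjusted p under 0.05. Itga10 was above background on 10 arrays and Itgae on all 28. Selplg, the ligand of P-selectin, measured under the name Selpl, read 5.20 to 6.29 on all 28 arrays and passed in none of the 10 comparisons, with changes of -0.63 to 0.25. Its LPS change was 0.25 ± 0.14.

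Genes that act with these receptors were followed in 4 lists. Of 38 genes of integrin activation and linkage, 16 rose and 3 fell with LPS, 3 rose and 8 fell with IL-4, and 9 rose and 6 fell with IFN-γ. The kinases Syk and Lyn, which signal below beta2 integrins, were among the LPS risers, Syk by 2.09 ± 0.18 and Lyn by 1.85 ± 0.16, while Rassf5, an activator of LFA-1, fell by 2.40 ± 0.24. With IL-4, Bcar1 (-1.92 ± 0.44), the adaptor Fyb (-1.60 ± 0.15) and the kinase Ptk2b (-1.38 ± 0.24) fell. With IFN-γ, the focal adhesion protein Zyx rose by 2.09 ± 0.25 and Tln2 fell at least 2.20-fold.

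Of 21 tested matrix and counter-ligand genes, 8 rose and 1 fell with LPS, 2 rose and 3 fell with IL-4, and 3 rose and 8 fell with IFN-γ. Fn1, fibronectin, the ligand of alpha5beta1, rose by 6.11 ± 0.50 with IL-4 and fell at least 2.17-fold with IFN-γ. Thbs1 rose by 5.41 ± 0.79 with IFN-γ and Fbln5 fell by 4.81 ± 0.29. Tnc, a ligand of alpha9beta1, rose by 4.08 ± 0.60 with LPS. Spp1, osteopontin, fell by 1.38 ± 0.17 with IL-4. Of 39 other adhesion receptors, 15 rose and 6 fell with LPS, 3 rose and 6 fell with IL-4, and 9 rose and 8 fell with IFN-γ. Pvrl2, nectin-2, rose by 3.11 ± 0.26 with LPS. F11r, junctional adhesion molecule A and another LFA-1 ligand, fell by 2.55 ± 0.19 with IL-4. Of 9 proteases that can shed adhesion molecules, 4 rose with LPS and 0 fell, 0 rose and 4 fell with IL-4, and 3 rose and 2 fell with IFN-γ. Mmp14 rose by 5.45 ± 0.28 with LPS and by 2.89 ± 0.36 with IFN-γ, and fell by 3.51 ± 0.33 with IL-4. The shares over all tested genes given for these comparisons apply here too.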

How the data were processed

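Total RNA of 28 macrophage cultures was hybridised to single-colour 44K Agilent arrays, 1 array per sample. Per the file headers, the deposited intensity values are Agilent Feature Extraction 9.5.1.1 processed signals, detrended and without background subtraction; the submitters' processing notes name version 9.5.1. Log2 of the deposited intensity minus each array's 75th percentile was computed here. Replicate spots of a probe were averaged, control and outlier spots left out, and each gene, by the scanner's gene name, was represented by its probe with the highest mean over 28 arrays, if well above background on at least 3. One limma 3.58.1 model (R 4.3.3) of 6 group means gave 10 contrasts, with Benjamini-Hochberg adjustment over all tested genes; calls are adjusted p-values under 0.05. Where no array of the dimmer group was above background, a fold is a lower bound against the lowest signal called above background on those arrays.

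The members and lists were chosen with earlier results of these data known. Genes were named as members; pathway examples are those with the largest change among called list genes, apart from a few added after their values were seen and some that are not reported here. The deposited value table was not used, because most of its columns did not match best the arrays of the samples they name. IL-4 and IL-4 with LPS arrays deviated together at r 0.153 to 0.728 by letter and 0.394 to 0.728 by slide set. Their letters A and B lie crossed between slide sets 3 and 4, so letters pair them no better than slide sets. IFN-γ and IFN-γ with LPS arrays gave 0.282 to 0.64 either way, so letter and slide set cannot be told apart there. Untreated and LPS arrays of 1 letter did not deviate together (-0.497 to 0.162), while those of 1 slide set did (0.283 to 0.646). Slide sets are slides that hold an untreated and an LPS array, the rest being joined by scan day. Alternatives were the letter, slide, slide set or scan day as a block, only the groups or shared experiments compared, normexp correction (offset 50), quantile and median scaling, no filter on dim probes, a stricter one, the mean of all probes, updated names, and each array left out.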

Additional observations from a re-analysis of the deposited data

Results flagged for a closer look

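Among 128 pairs of a member and a group of 4 to 7 arrays, 10 held an array that stood apart from the rest of its group, where chance gives about 5%. Untreated array G was high for Itgb6 (-3.50, the others -8.84 to -7.35) and Itga7 (-3.02, the others -4.29 to -3.75). Untreated array B was high for Itga11 (-4.07, the others -5.53 to -4.93) and low for Itgb2 (5.00, the others 5.27 to 5.43), and untreated array A was high for Itgae (-2.67, the others -4.28 to -3.66). LPS array F read -8.38 for Itgax, where the others read 1.47 to 2.46. IL-4 array A was low for Itgb3 (1.62, the others 2.47 to 2.59) and IL-4 array G for Itgb6 (-8.32, the others -7.55 to -7.41), where no IL-4 array was above background for Itgb6. IL-4 with LPS array B was low for Itgav (2.02, the others 2.57 to 2.66) and array G high for Itgb5 (5.10, the others 4.28 to 4.42).

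The LPS change differed with priming, by the interaction test of limma's model, in 7 cases. After IL-4 the difference was 2.30 for Vcam1 (adjusted p = 0.00941), -3.42 for Itgb8 (adjusted p = 0.00337) and -2.33 for Pecam1 (adjusted p = 0.0373). After IFN-γ it was -2.07 for Icam1 (adjusted p = 4.40e-05), -2.08 for Vcam1 (adjusted p = 0.0130), -1.92 for Itgal (adjusted p = 0.0197) and -3.31 for Itgb8 (adjusted p = 0.00291). Of all genes, 0.905% had a larger and 0.680% a smaller change after IL-4, and 3.03% and 5.25% after IFN-γ. Both Itgb8 values rest on untreated signals below background, and its probes opposed each other after IL-4. The limits given above for the other genes apply here too.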

How the results depend on the processing

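Of 111 called member results, 84 stayed called with each array left out in turn, 27 were lost at least once and 0 reversed. Those fits called 17 to 19 members for LPS, 10 to 13 for IL-4, 12 to 14 for IFN-γ, 13 to 18 for LPS after IL-4, 7 to 10 for LPS after IFN-γ, 5 to 8 and 11 to 14 for IL-4 or IFN-γ with LPS against LPS, 10 to 13 for IL-4 against IFN-γ, and 2 to 3 and 3 to 5 for the IL-4 and IFN-γ interactions. With the experiment letter as a replicate block the counts were, in that order, 19, 12, 15, 15, 11, 6, 12, 11, 3 and 4. The block moved none by over 1.5 times. Letters did not pair untreated and LPS arrays, so the letter block and the shared letters cannot check pairing where those arrays enter. With only the groups compared and the letter as a block, LPS after IL-4 gave 15 and LPS after IFN-γ 13.

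Counts moved by over 1.5 times as follows. The slide as a block gave 22 for LPS after IL-4 (14 without it), 16 for LPS after IFN-γ (10), 14 for IL-4 with LPS against LPS (7), and 6 and 8 for the IL-4 and IFN-γ interactions (3 and 4). For IL-4 with LPS against LPS, scan day as a block gave 12 and slide set 14, and each gave 6 for the IL-4 interaction. Only the groups compared gave 4 for LPS after IFN-γ. Shared letters gave 5 for IL-4 against IFN-γ, 1 for the IL-4 and 2 for the IFN-γ interaction; shared slide sets gave 5 for IL-4 against IFN-γ and 0 for the IL-4 interaction. Normexp gave 6 for IL-4, 2 for LPS after IFN-γ, 4 and 7 for IL-4 or IFN-γ with LPS against LPS, and 0 and 2 for the interactions. Calls over all genes fell under normexp too. In that order they were 735, 863, 535, 2058, 40 and 741, against 2551, 2680, 2021, 5163, 359 and 1875 in the main fit. Median scaling gave 2 for LPS after IFN-γ, and the mean of all probes 0 for the IL-4 interaction. The cause was not tested. Calls over all genes are not given for the blocks, the shared letters or slide sets, the compared groups or the mean of all probes. Those member counts therefore stand without a share of all genes.

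Reversed values were, under normexp, Pecam1 with IFN-γ (-0.0099), Cdh1 with IFN-γ and LPS against LPS (0.20) and Itgb8 in the IL-4 interaction (0.21); under quantile normalization, Itgam (-0.17) and Itgb2 (-0.75) with LPS and Itgb2 with LPS after IL-4 (-0.51); and as the mean of all probes, Itga3 (-0.31) and Itgb3 (-1.07) with IFN-γ, and Itga3 (-0.18) and Itgb3 (-1.15) with IFN-γ and LPS against LPS. The deposited value table, planned as an alternative, was not run. Members near background, such as Itgb6, Itga10 and untreated Itgb8, are limited by signal over background.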
